A study of Mus musculus with 6 samples.

Results

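A set of 10 genes of the lysosome was followed across the immune cells of mouse mammary tumours: the cathepsins Ctsb, Ctsl, Ctss, Ctsz and Ctsd, the asparaginyl endopeptidase Lgmn, the sphingolipid activator precursor Psap, and the membrane proteins Cd63, Cd68 and Lamp1. They were chosen by symbol, as genes of the digestive side of cell uptake, and not by any measured value. All 10 were found among the 33696 features of the count tables. The series holds 6 libraries of live CD45+ cells sorted from mammary tumours, 1 for each treatment label. The 5 labelled MRX, CTX, Combined, ctxd18t and combod18t are described here, and the library labelled VC was not analysed here. The series title names MERTK inhibition and cyclophosphamide, but the labels do not spell out the abbreviations. The protocol says that mice of day 7 received treatment 3 hours before harvest, and the 2 labels with d18 are read as day 18. MRX is thus a single-agent label at the earlier time, CTX another, Combined the label of the combination, and ctxd18t and combod18t carry the names of CTX and the combination with day 18. Strain, tumour model, age, dose and the number of mice behind a library are not given in the sources used here, and the libraries share no stated allele or transgene.

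Lysosomes are the acidic compartments in which engulfed cells, proteins and lipids are broken down. Cathepsins B, L, S and Z are cysteine proteases, cathepsin D is an aspartic protease, and legumain cuts after asparagine and also processes several cathepsins to their mature forms. Psap encodes the precursor of the saposins, which help enzymes to degrade sphingolipids. LAMP1 is a major glycoprotein of the lysosomal membrane, CD63 is a tetraspanin of late endosomes, lysosomes and secretory granules, and CD68 is a LAMP-related protein that is widely used to stain macrophages. Cathepsin S and legumain are also known from antigen processing in antigen-presenting cells.

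After filtering, 25653 cells remained, from 3845 in ctxd18t to 8506 in CTX, with a median of 6239 to 8940 UMIs (unique molecules counted) per cell and library. Clusters were named from marker lists, and neither the 10 genes nor any other lysosomal gene on the lists took part in the clustering. Of the 25653 cells, 1362 in 4 clusters with markers of more than 1 class at high depth were left out of every class. They made up 1.10% of MRX, 7.83% of CTX, 4.70% of Combined, 6.22% of ctxd18t and 5.16% of combod18t. The libraries MRX, CTX and Combined shared 0 barcodes with each other, as did the day 18 libraries. With 1 library per label there is no replicate, so no test between labels was made, classes are compared by their levels within each library, and every interval below covers counting error only. Levels are CPM, the counts of a gene scaled to 1000000 UMIs, over all UMIs of a class in a library, and values of different genes are not compared, since they are not corrected for length or capture.

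Of the genes, 4 carry the 6-base E-box CACGTG within the 250 bases before their start in RefSeq, the core letters of the element that TFEB, TFE3 and MITF are known to bind at lysosomal genes. These stretches are shown for these 4 genes only. Of the factors, Mitf and Tfe3 are compared between cells further on, and a link to these stretches was not tested. Of the 10 genes, 9 have a promoter window in the RefSeq table of GRCm38.p6, and none was found there for Ctsb. The windows span 300 bases, 250 of them before the start. The E-box, which reads the same on both strands, was found in windows of Lamp1, Ctsd, Ctsl and Lgmn, against 7.15% of all windows of this length. The longer 10-base palindrome of the CLEAR element, which contains the E-box, was found in 0 of the 11 windows of these genes and in 0.3257% of all windows. The Ets-type letters GAGGAAGT, searched on both strands, were found in the Ctss window alone, against 3.202% of all windows. Lamp1 holds 4 E-boxes at chr8:13158911-13159160 on the plus strand. Ctsd holds 2 at chr7:142387828-142388077, Ctsl holds 1 at chr13:64370521-64370770, and Lgmn holds 1 at chr12:102439093-102439342, these 3 on the minus strand. Each line gives the 250 bases before the start, 5′ to 3′, with the E-box in capitals.
Lamp1: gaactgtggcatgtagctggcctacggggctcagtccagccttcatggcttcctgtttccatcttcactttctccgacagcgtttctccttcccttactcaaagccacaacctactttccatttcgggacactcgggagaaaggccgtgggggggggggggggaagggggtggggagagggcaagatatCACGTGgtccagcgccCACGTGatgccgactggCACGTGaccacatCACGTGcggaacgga
Ctsd: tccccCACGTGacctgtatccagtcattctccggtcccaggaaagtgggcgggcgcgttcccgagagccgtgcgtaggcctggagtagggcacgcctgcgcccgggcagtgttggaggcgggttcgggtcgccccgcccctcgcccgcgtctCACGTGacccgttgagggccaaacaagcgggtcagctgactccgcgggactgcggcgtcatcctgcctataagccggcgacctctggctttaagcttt
Ctsl: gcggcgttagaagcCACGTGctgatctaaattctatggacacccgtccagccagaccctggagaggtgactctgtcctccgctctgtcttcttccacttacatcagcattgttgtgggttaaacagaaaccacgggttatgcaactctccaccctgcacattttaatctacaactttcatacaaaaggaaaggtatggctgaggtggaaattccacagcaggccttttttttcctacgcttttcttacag
Lgmn: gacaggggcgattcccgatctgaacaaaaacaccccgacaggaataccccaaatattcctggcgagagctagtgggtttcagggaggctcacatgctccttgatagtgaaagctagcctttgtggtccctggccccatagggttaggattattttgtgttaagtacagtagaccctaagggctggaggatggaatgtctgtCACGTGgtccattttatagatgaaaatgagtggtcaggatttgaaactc
A match of letters is a description and not a bound site. The Lgmn match lies in 1 of its 2 windows.

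The 10 genes together gave 1.23% of all UMIs in the monocyte-macrophage-like cells of MRX, 1.17% in CTX and 1.09% in Combined, and at day 18 1.23% in ctxd18t and 1.20% in combod18t. Libraries thus differed little in the sum, while classes differed a lot. C1q-high macrophage-like cells gave the most in every library, from 1.40% to 1.70%, followed by inflammatory macrophage-like cells with 1.02% to 1.17% and classical monocyte-like cells with 0.909% to 1.14%, whose ranges overlap. Plasmacytoid dendritic (pDC)-like cells lay at 0.497% to 0.840% and type 2 conventional dendritic (cDC2)-like cells at 0.480% to 0.60%. T-like, NK-like and B-like cells gave 0.0660% to 0.0905%, 0.0725% to 0.0924% and 0.103% to 0.114%.

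**Figure D1:**
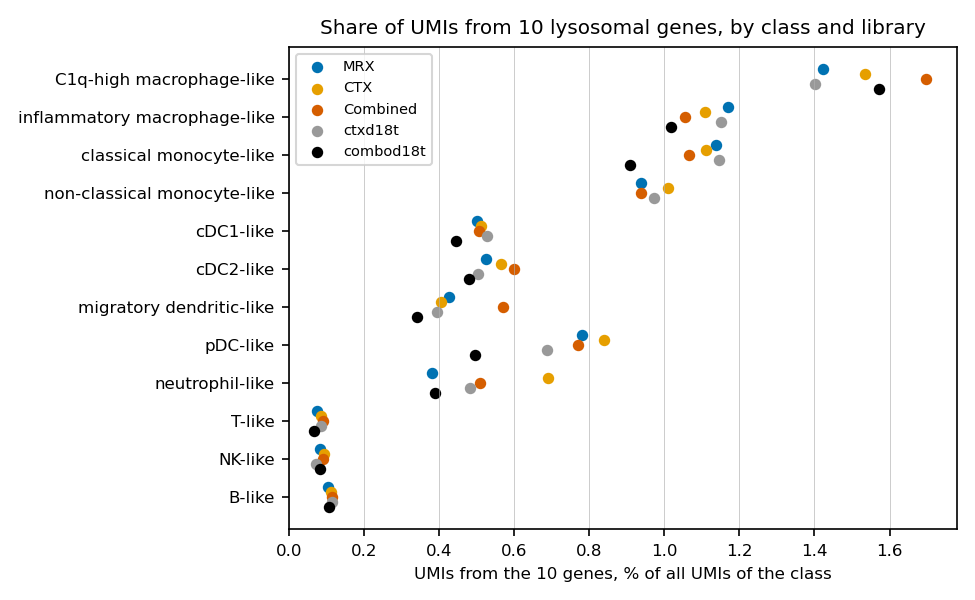
Percent of all UMIs of a class that came from the 10 genes (x axis) in each class or state (y axis), 1 point per library with at least 10 cells of it. C1q-high macrophage-like cells lie at 1.40% to 1.70% and lymphoid classes under 0.12%.

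Of the 10 genes, 9 were at least 2-fold higher in monocyte-macrophage-like cells than in all other named and unnamed cells of the same library, in each of the 5 libraries. Of the 5320 genes tested in this contrast, 11.4% were. The median log2 ratio was 2.45 over the 10 genes and -0.20 over all genes. Lgmn stood out most, with 1365 CPM in MRX, 946 in CTX and 518 in Combined, and at day 18 1244 in ctxd18t and 892 in combod18t, against 31.6 to 61.5 CPM in all other cells. Its log2 ratio was between 3.62 and 4.78, and the levels of both sides did not overlap. Ctsd was the exception: it measured 238 to 352 CPM in monocyte-macrophage-like cells and 110.02 to 220.3 in the others, with log2 ratios of 0.30 to 1.26. Summed markers of other cells in monocyte-macrophage-like cells were at most 151 CPM in any library for T, B, NK and epithelial lists. The neutrophil list (9 markers) summed to 229 to 264 CPM in MRX, CTX and Combined and to 726 and 716 at day 18, and the plasmacytoid dendritic list (9 markers) to 817 to 1061, each with at most 1 marker at 0. The erythroid list reached 715 CPM in combod18t and at most 3.79 elsewhere. The part of these in the results was not tested.

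The other classes fell short of the monocyte-macrophage-like cells to different degrees. In cDC2-like cells 6 of the 10 genes were at least 2-fold lower in each of the 4 libraries with enough cells (all but Ctss, Ctsz, Psap and Cd68), where 6.27% of all genes were. In pDC-like cells 5 were lower (Ctss, Ctsd, Lgmn, Cd63 and Lamp1) against 11.6% of genes, and 0 were 2-fold higher in every library against 13.3%. In neutrophil-like cells 2 were lower, Ctss and Lgmn, against 12.7%. In T-like and NK-like cells 9 were lower, all but Ctsd, against 15.8% and 15.4%, and in B-like cells all 10 were, against 18.7%. The median log2 ratio of the 10 genes was -1.61 in cDC2-like, -1.47 in pDC-like, -1.25 in neutrophil-like, -4.25 in T-like, -5.01 in NK-like and -4.28 in B-like cells.

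Cysteine cathepsins differed in where they were highest. Ctsb was highest in C1q-high macrophage-like cells of all 5 libraries, with 1895 CPM in MRX, 2169 in CTX and 2206 in Combined, and at day 18 2291 in ctxd18t and 2195 in combod18t. Its next levels, in pDC-like cells (1001 to 1636) and in the other monocyte and macrophage states (995 to 1718), overlap each other. Neutrophil-like cells reached 833 to 1323 CPM, cDC2-like cells 326 to 476 and B-like cells 50.1 to 66.4. Ctss, the cathepsin known for its part in class II antigen processing, was highest in C1q-high macrophage-like cells too (5078 to 5964), then in inflammatory macrophage-like cells (4068 to 4884) and classical monocyte-like cells (3319 to 3999). cDC2-like cells held 2231 to 2599 CPM of Ctss and pDC-like cells 747 to 1065. Ctsz ran from 633 to 1226 CPM in C1q-high macrophage-like cells, a range that overlaps inflammatory macrophage-like (508 to 849) and cDC2-like cells (412 to 678). Within each library, though, C1q-high cells held more than either. The inflammatory level was 69.3% (Combined) to 90.3% (MRX) of the C1q-high level in the libraries with at least 50 inflammatory cells.

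Ctsl followed another order. pDC-like cells held 1547 CPM in MRX, 1421 in CTX and 1164 in Combined, and at day 18 1144 in ctxd18t and 779.9 in combod18t, above the monocyte-macrophage-like cells of the same library each time. The log2 ratio of pDC-like to monocyte-macrophage-like cells was 0.62 to 1.61. Classical monocyte-like cells came next (644 to 1092 CPM), and C1q-high and inflammatory macrophage-like cells overlapped at 385 to 527 and 371 to 519.5. cDC2-like cells held only 25.7 to 79.0 CPM. After each cell was thinned to 1000 UMIs, 41.1% to 77.2% of pDC-like cells had a Ctsl UMI, against 27.4% to 33.7% of C1q-high macrophage-like and 0% to 1.07% of NK-like cells. Without thinning, those shares were 96.4% to 100% in pDC-like and 68.1% to 84.6% in C1q-high macrophage-like cells. pDC-like cells had the higher median depth in all 5 libraries, from 8248 UMIs against 7732.5 for C1q-high cells in MRX to 15918.5 against 9070.0 in combod18t.

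The highest median level of Psap was not in a macrophage state either, with ranges that overlap. The few type 1 conventional dendritic (cDC1)-like cells, 10 to 33 per library, held 2502 to 3719 CPM. pDC-like cells held 1742 to 3135, non-classical monocyte-like cells 1772 to 2654 (7 to 176 cells), and C1q-high macrophage-like cells 1625 to 3051, all overlapping. cDC2-like cells lay at 767 to 2048 CPM of Psap and migratory dendritic-like cells, 10 to 36 per library, at 269.7 to 1159.

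Of the membrane proteins, Cd63 split the myeloid cells most sharply. C1q-high macrophage-like cells held 799 CPM in MRX, 673 in CTX and 866 in Combined, and at day 18 746 in ctxd18t and 951 in combod18t. Migratory dendritic-like cells were in the same range (745 to 969), while cDC2-like cells had 19.3 to 85.2 and pDC-like cells 2.97 to 9.72. Neutrophil-like cells held 222 to 492 CPM. Cd68 was spread over all monocyte and macrophage states, at 238 to 365 CPM in C1q-high and 201 to 361 in classical monocyte-like cells, and reached 81.7 to 212 in pDC-like and 92.3 to 170.1 in neutrophil-like cells. Lamp1 was also even, with 678 to 857 CPM in C1q-high and 789.7 to 979 in classical monocyte-like cells. Migratory dendritic-like cells held 611 to 791 CPM of Lamp1, against 214 to 322 in cDC2-like cells.

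**Figure D2:**
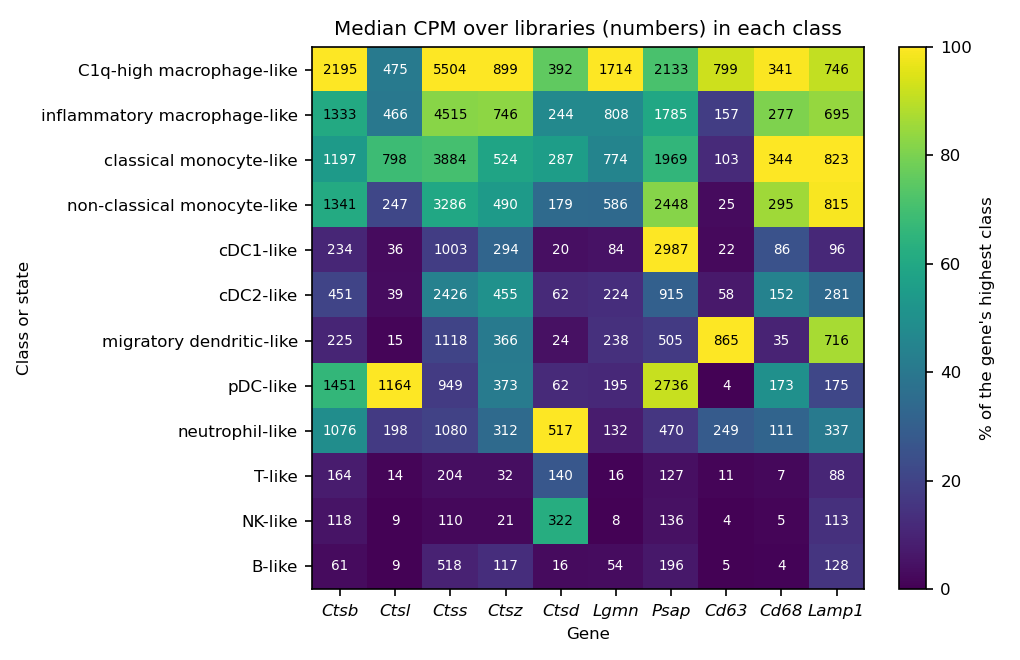
Median CPM over libraries with at least 10 cells (numbers) of each gene (x axis) in each class or state (y axis), coloured as a percent of the gene's highest class. Ctsl peaks in pDC-like, Psap in cDC1-like, Cd63 in migratory dendritic-like and C1q-high macrophage-like, and Ctsd in neutrophil-like cells.

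Ctsd was led by neutrophil-like cells, at 567 CPM in MRX, 437 in CTX and 535 in Combined, and at day 18 464 in ctxd18t and 517 in combod18t. These values lie above the C1q-high macrophage-like cells (269 to 432) in every library, but in CTX the classes were nearly level. There it was 437 CPM, on 167 UMIs of 90 neutrophil-like cells, against 432 in C1q-high cells. NK-like cells held 322 CPM in MRX, 390.2 in CTX and 393 in Combined, and at day 18 218 in ctxd18t and 212 in combod18t, within the range of the macrophage states. T-like cells held 79.3 to 168 CPM and B-like cells 12.5 to 17.6. The level in NK-like cells was 79.9% to 145% of that in monocyte-macrophage-like cells.

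RNA set free from macrophages can be counted in other cells, so the lymphoid levels were set beside C1qa, C1qb, C1qc and Lyz2, which lymphocytes should lack. In T-like cells those 4 genes were at 0.502% to 5.74% of their monocyte-macrophage level. Ctsd (29.8% to 60.5%), Ctsb (6.79% to 14.8%), Lamp1 (9.60% to 12.2%), Psap (6.0% to 6.94%) and Ctsz (2.80% to 7.43%) lay above all 4 in each of the 5 libraries. The other 5 genes, at 0.958% to 5.72%, did not. Cd63 lay above all 4 references in 4 libraries, Ctss in 3, Cd68 and Ctsl in 1 each and Lgmn in 0. None of these 5 is read as T-cell expression, and whether the 5 genes above the references are was not tested. The 4 references are macrophage and monocyte genes and may miss free RNA of other classes. Ctsd in neutrophil-like cells was at 158% to 197% of its monocyte-macrophage level, and Psap and Ctsb in pDC-like cells reached 153% and 129%. In T-like cells the lowest ratio to the highest reference was 1.088 for Psap and 1.295 for Ctsz. In NK-like cells Ctsd, Ctsb, Lamp1 and Psap exceeded the references in all 5 libraries, and Lgmn again in 0. In B-like cells Ctss reached 9.76% to 13%, Ctsz 14.7% to 21.0% and Lamp1 13.6% to 18.8%, where the references stayed at or under 2.75%. Psap, Ctsd, Ctsb, Lgmn and Cd63 also lay above all 4 references there in each of the 5 libraries, Ctsl in 3 and Cd68 in 2. For Cd63 this includes a value on 5 UMIs in combod18t, so values near the floor can pass. B-like levels were 429 to 583 CPM for Ctss and 12.5 to 17.6 for Ctsd, and the part of free RNA in them was not tested.

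Within the T-like class the levels differed between clusters. Clusters 2 and 8, led by genes such as Lef1, S1pr1 and Dapl1, held 54.4 to 80.1 CPM of Ctsb and 37.4 to 85.0 of Ctsd over the libraries. Cluster 7, led by Gzmk, Ccl5 and Cd8a, held 162 to 293 CPM of Ctsd, and cluster 12, led by Ccl1, Penk and Ifng, held 168 to 289. Neither range overlaps that of clusters 2 and 8. Cluster 10, led by the regulatory T-cell gene Foxp3, had 183 to 257 CPM of Ctsb but only 58.2 to 91.6 of Ctsd. In the day 18 libraries the T-like class as a whole held 205 and 105 CPM of Ctsb in ctxd18t and combod18t, 140.4 and 79.3 of Ctsd, and 30.5 and 16.8 of Ctsz. The log2 ratios were -0.96, -0.82 and -0.82, where 22.5% of the 4084 genes tested moved by at least 0.5 either way. Ctsz, under 50 CPM on both sides, is not among the genes tested, nor is Cd63 (11.1 and 6.57 CPM). The macrophage genes C1qa (36.2 and 23.4 CPM), C1qb (20.4 and 10.8) and C1qc (20.5 and 13.3) moved the same way in these T-like cells. Lyz2 went the other way, at 39.0 and 43.5 CPM. The part of macrophage RNA was not tested. Cluster 2 made up 1298 of the 2581 T-like cells of combod18t and 192 of the 1247 of ctxd18t. Within cluster 2, Ctsd was nearly level between ctxd18t and combod18t (37.4 and 38.1 CPM), whereas Ctsb was 71.8 and 54.4 and Ctsz 18.3 and 10.4. Within cluster 12 (320 and 265 cells), Ctsb was 275 and 176 CPM, Ctsd 244 and 168 and Ctsz 21.9 and 21.7. Within cluster 7 (187 and 170 cells), Ctsb was 170.3 and 167 CPM, and Ctsd went the other way at 162 and 216. The direction thus differed between clusters and genes, and the part of the cluster shares was not tested.

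**Figure D3:**
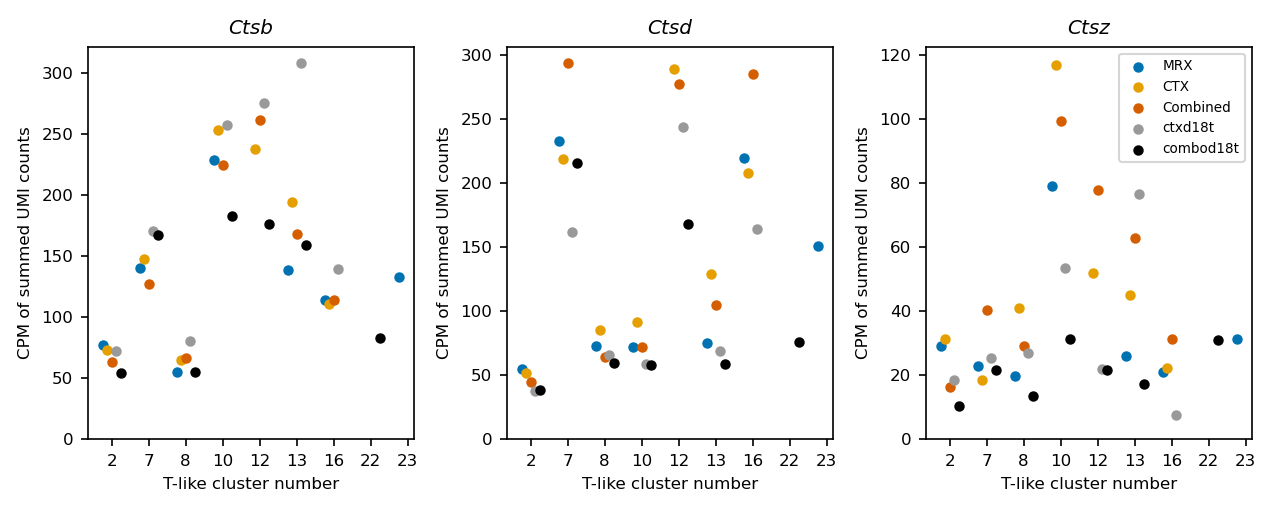
CPM (y axis) of Ctsb, Ctsd and Ctsz in each numbered T-like cluster (x axis), 1 point per library with at least 50 cells of the cluster. Ctsd lies at 162 to 293 CPM in cluster 7 and under 86 in clusters 2 and 8.

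The 3 states below held most monocyte-macrophage-like cells. C1q-high cells, led by Ccl8, C1qa, C1qb, C1qc and Folr2, were 34.8% of them in MRX, 16.1% in CTX and 7.47% in Combined, and at day 18 34.6% in ctxd18t and 51.7% in combod18t. Inflammatory cells, led by Ly6i, Cxcl9 and Cxcl10, were 67.3% in CTX and 71.7% in Combined. Classical monocyte-like cells, led by genes such as F13a1 and Vcan, were 45.9% in MRX and 43.2% in ctxd18t. Haemoglobin genes also led the C1q-high cluster: the summed level of 5 erythroid markers there was 1695 CPM in combod18t and at most 5.69 CPM in the other libraries, and its part in the results was not tested. The left-out mixed cluster 14, led by genes such as Ms4a7, C1qa and Cd63, held 23 cells of MRX, 355 of CTX and 98 of Combined. At day 18 it held 157 of ctxd18t and 156 of combod18t. The C1q-high shares thus depend on this rule. With each library clustered separately, 778 cells of MRX, 1479 of CTX and 300 of Combined were named C1q-high, in place of 486, 702 and 89.

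Of the 10 genes, 1 (Cd63) was at least 2-fold higher in C1q-high than in classical monocyte-like cells in every library, where 2.37% of 4643 genes were. In monocytes it measured 124 CPM in MRX, 103 in CTX and 59.2 in Combined, and at day 18 159 in ctxd18t and 53.0 in combod18t, so the 2 states did not overlap, and the log2 ratios were 2.22 to 4.14. Lgmn was higher in C1q-high cells of every library by 0.68 to 1.85 log2 units, and Ctsb by 0.41 to 1.14. Ctsz (0.54 to 1.37), Ctss (0.36 to 0.81) and Ctsd (0.15 to 0.64) had the same sign in all 5. Ctsl had the opposite sign in all 5, at -1.22 to -0.57, and Lamp1 lay at -0.26 to -0.14. Cd68 and Psap changed sign between libraries. The level of C1qa in monocytes was 3.04% to 7.39% of that in C1q-high cells, and that of Cd63 5.57% to 21.3%.

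Against inflammatory macrophage-like cells, in the 4 libraries with at least 50 of them, Cd63 was again the 1 gene past 2-fold in every library (2.10 to 2.71), where 1.57% of 4345 genes were. Lgmn lay at 0.75 to 1.88 there. Between the inflammatory and monocyte states 0 of the 10 genes were 2-fold apart in all 4 libraries, a count near the background, where 1.09% of 4228 genes were higher and 0.568% lower. Ctsl was lower in the inflammatory state by 0.59 to 1.23 log2 units in all 4 of them.

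**Figure D4:**
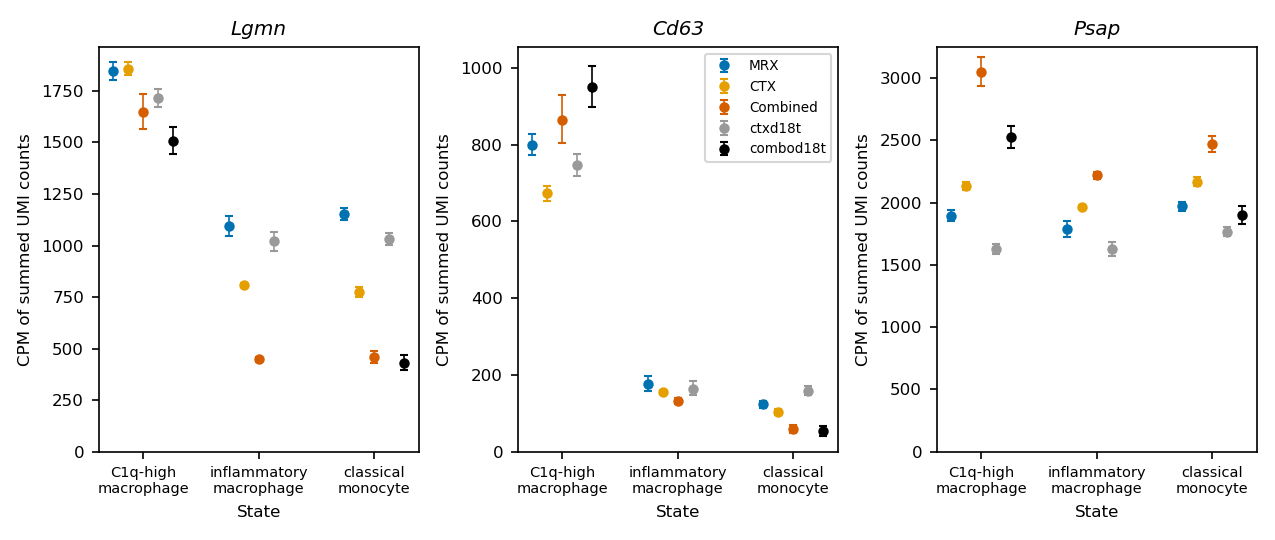
CPM (y axis) of Lgmn, Cd63 and Psap in 3 states (x axis), 1 point per library with at least 50 cells, bars as 95% Poisson intervals of the count. Lgmn lies at 1508 to 1856 in C1q-high cells of all libraries and at 431 to 1153 in classical monocyte-like cells.

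The libraries were compared next, with the question of how the combination label differs from the CTX label at each time. All monocyte-macrophage-like cells of Combined had 518 CPM of Lgmn and those of CTX 946, a log2 ratio of -0.87 (95% interval -0.90 to -0.83). Lgmn was the 1 gene of the 10 past the fold of 0.5 log2 units used for libraries, where 5.60% of 3537 genes were. Cd63 was at 162 against 221 CPM (-0.44, -0.51 to -0.38), and Ctsb at 1110.0 against 1352 (-0.28). Psap (0.19), Lamp1 (0.20) and Ctsl (0.17) were slightly higher in Combined. The median of all genes was 0.07 in this comparison, so that Cd68 and Ctsd, both at -0.03, lay close to it.

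The Lgmn difference was past the fold in 2 of the 3 states and smaller in the third. In inflammatory macrophage-like cells Lgmn was 448 CPM in Combined and 808 in CTX (-0.85, -0.89 to -0.81), where 4.73% of genes passed the fold. C1qa moved the same way in these inflammatory cells, at 639.8 CPM in Combined and 847 in CTX, as did C1qb (367 and 493) and C1qc (440.0 and 543), and their part was not tested. In classical monocyte-like cells it was 457 and 774 (-0.76, -0.86 to -0.66), where 5.73% did, and Cd63 was the other gene past the fold there, at 59.2 against 103 CPM (-0.79). C1qa in these monocyte-like cells moved with Lgmn and Cd63, at 179.9 CPM in Combined and 316 in CTX, as did C1qb (131 and 208) and C1qc (125 and 213), and their part was not tested. In C1q-high cells it was 1649 and 1856 (-0.17, -0.25 to -0.09). Thinned to 1000 UMIs, 32.1% of the classical monocyte-like cells of Combined had a Lgmn UMI against 45.1% in CTX, and 30.5% against 47.0% of the inflammatory cells. NK-like cells, at similar or lower median depth (7641.0 and 8328.0 UMIs), had 0.744% and 0.491%. The unthinned shares in monocytes were 85.2% and 92.9%.

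MRX had more Lgmn than both. Against MRX (1365 CPM), the log2 ratio of Lgmn was -0.53 in CTX and -1.40 in Combined, and that of Cd63 -0.71 and -1.15. These 2 genes of the 10 passed the fold in each comparison, where 14.2% of 3537 genes did for CTX and 23.2% of 3650 for Combined. The comparisons share libraries, so they are not independent. In C1q-high cells Lgmn differed from MRX by 0.01 in CTX and -0.16 in Combined, whereas in classical monocyte-like cells it differed by -0.57 and -1.33. Cd63 in C1q-high cells differed by -0.25 and 0.11. C1q-high cells, the state with the highest Cd63 level, were 34.8% of the monocyte-macrophage-like cells of MRX against 16.1% and 7.47%, and the part of that share in the Cd63 values of the whole class was not tested.

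At day 18, classical monocyte-like cells of combod18t had 431 CPM of Lgmn and those of ctxd18t 1031, a log2 ratio of -1.26 (-1.38 to -1.13), where 16.6% of 3961 genes passed the fold. Of the 10 genes, 5 were lower past it and 0 higher: Lgmn, Cd63 (53.0 against 159 CPM, -1.57), Ctsb (995 against 1718, -0.79), Ctsl (644 against 1092, -0.76) and Cd68 (201 against 301, -0.58). For Lgmn, C1q-high cells had 1508 and 1714 (-0.18, -0.26 to -0.11). The order is thus the same as for Combined and CTX at the earlier time, lower under the combination label and more so in monocytes, with 95 monocyte-like cells in combod18t. Over all monocyte-macrophage-like cells Lgmn was 892 and 1244 CPM (-0.48). There, 1 gene of the 10, Ctsl, passed the fold, with 491 against 745 CPM (-0.60, -0.68 to -0.52), where 7.51% of 3944 genes did. Ctsl differed by -0.28 in C1q-high and by -0.76 in classical monocyte-like cells. When each library was clustered separately, 0 C1q-high cells were named in combod18t, only 131 monocyte-macrophage-like cells remained there in place of 267 and 241 in ctxd18t in place of 778, and the Ctsl ratio was -0.37 and that of Cd63 -2.59 in place of 0.28.

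Psap in C1q-high cells was higher under both combination labels. It measured 3051 CPM in Combined and 2133 in CTX (0.52, 0.46 to 0.58), where 9.71% of 3626 genes passed the fold. At day 18 it measured 2526 in combod18t and 1625 in ctxd18t (0.64, 0.57 to 0.70), where 11.2% of 3999 did. The Combined value rests on 89 cells and the combod18t value on 138 cells, the ones with the haemoglobin counts given above. Psap differed by only 0.19 and 0.11 in classical monocyte-like cells. Ctsz in C1q-high cells of combod18t was also past the fold, at 899 against 633 CPM (0.51).

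**Figure D5:**
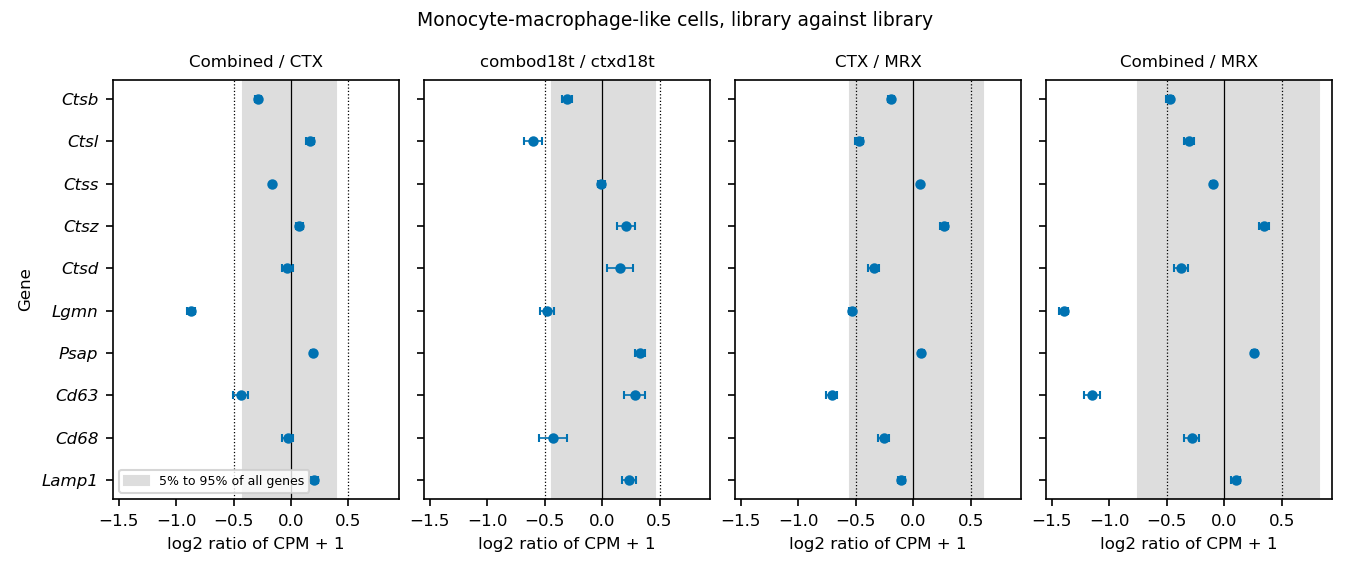
Log2 ratios of CPM + 1 (x axis) of the 10 genes (y axis) in monocyte-macrophage-like cells for 4 library comparisons, bars as 95% counting intervals, grey band from the 5th to the 95th percentile of all genes tested, dotted lines at 0.5 either way. Lgmn lies left of the band against CTX (-0.87) and MRX (-1.40) in Combined.

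In pDC-like cells 3 of the 9 genes that reached 50 CPM on either side were lower past the fold in combod18t than in ctxd18t and 0 higher. Cd63, which did not reach it, was at 9.72 against 2.97 CPM on 10 and 3 UMIs. The macrophage genes C1qa (74.9 against 3.96 CPM) and Lyz2 (74.9 against 10.9) moved with it, and their part was not tested. Ctsb was 1001 against 1636 CPM (-0.71), Cd68 81.7 against 162 (-0.98) and Ctsl 779.9 against 1144 (-0.55), where 20.9% of 4342 genes passed the fold. The classes held 56 and 74 cells. Neutrophil-like cells differed between MRX and CTX in Ctss (539 and 2274 CPM), Lgmn (88.0 and 306) and Psap (353 and 1083), with 458 and 90 cells, in a comparison where 55.5% of 3352 genes passed the fold. Of the 10 genes, 7 were higher in CTX there and 1, Cd63, lower (243 against 492 CPM). Ctss in those neutrophil-like cells was 12.3% of its monocyte-macrophage level in MRX and 49.5% in CTX. Of the reference genes, C1qa was at 8.28% and 21.3% and Lyz2 at 7.72% and 53.9%, and Ctss lay above all 4 in 2 of the 5 libraries. The part of macrophage RNA in these values was not tested. Of the 10 genes, 2 were lower in cDC2-like cells of CTX than of MRX, Lgmn (116 against 322 CPM) and Ctsl (28.2 against 79.0), and 2 were higher, Psap (1497 against 915) and Ctsz (644 against 452), where 26.1% of 3546 genes passed the fold. A cDC2-like sub-cluster led by Ccl17 and Ear2 gave 62 of the 228 such cells of CTX and 0 of the 122 of MRX.

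The rest of the lysosomal machinery was read from lists of known genes. In the contrast of monocyte-macrophage-like with all other cells, 3 of 5 expressed other cathepsins were at least 2-fold higher in every library (Ctsa, Ctsc and Ctsh) and 2 lower (Ctsw and Ctse), where 11.4% of all genes were higher and 13.4% lower. Of 20 expressed hydrolases 8 were higher and 0 lower, among them Hexa (2.30 to 3.30 log2 units), Gusb, Asah1 and Acp2. Of 20 membrane and transport proteins 11 were higher, among them Slc11a1, Lamp2, Npc2 and Grn, and of 16 subunits of the proton pump that acidifies lysosomes 7 were higher, among them Tcirg1 (2.14 to 2.82). Of 4 transcription factors and regulators of the MiT/TFE group 2 were higher: Mitf (2.33 to 3.13) and Tfe3 (1.14 to 1.34). Of the protease inhibitors 7 of 9 were lower and only Cstb, which encodes the inhibitor cystatin B, was higher (1.69 to 2.92). Only 2 of the 17 inhibitors and 3 of the 9 other cathepsins listed reached 50 CPM in monocyte-macrophage-like cells of Combined or CTX. A gene under 50 CPM there enters the contrast only through the other cells, so its lower side follows from the filter.

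Between C1q-high and classical monocyte-like cells, 2 of 23 hydrolases were at least 2-fold higher in every library, among them Acp5 (2.91 to 4.82), and 0 were lower, where 2.37% of all genes were higher and 2.46% lower. The proton pump subunits (0 of 16 either way, median -0.08) and the membrane and transport proteins (0 of 18, median -0.06) differed little, beside a median of -0.05 over all genes. Acp5 encodes an acid phosphatase.

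Between libraries, Acp5 alone of the 58 expressed genes on the 6 lists passed the fold in Combined against CTX, at 69.4 against 115 CPM (-0.72), beside 5.60% of all genes. In combod18t against ctxd18t 2 of 59 did, beside 7.51% of all genes: the mannosidase gene Man2b1 (359 against 247 CPM, 0.53) and Fnip1 (350.2 against 231, 0.60). Genes with the same sign in both comparisons and the largest smaller ratio were Clcn7 (0.38 and 0.40), Atp6ap2 (0.32 and 0.34), Ostm1 (0.32 and 0.28), Rragc (0.26 and 0.42), Tmem192 (0.23 and 0.26) and Atp6v1h (0.29 and 0.22) upward. Downward they were Atp6v0a1 (-0.37 and -0.45), Atp6v1f (-0.07 and -0.21), Atp6v0e (-0.05 and -0.16), Ctsh (-0.08 and -0.05), Gnptab (-0.21 and -0.03) and Atp6v0b (-0.04 and -0.03), all inside the fold. Clcn7 and Ostm1 encode the 2 subunits of a lysosomal chloride-proton exchanger. Their levels were 50.7 against 38.6 CPM and 49.0 against 39.1 CPM in Combined and CTX. Against MRX, 10 of 60 list genes passed the fold in Combined, beside 23.2% of all genes. Those lower included Acp5 (-0.77), Cst3 (-0.70), Man2b1 (-0.52) and Hexa (-0.50), and those higher were Cd164 (1.37), Clcn7 (1.09), Ifi30 (0.67), Ctsc (0.52) and Atp6v0c (0.50). In CTX against MRX, 3 of the 58 list genes were higher, Cd164 (0.90), Mitf (0.57) and Ifi30 (0.51), and 1 was lower, beside 14.2% of all genes past the fold either way.

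Across 49 profiles of a class in a library with at least 50 cells, the 45 pairs among the 10 genes had Pearson correlations of log2 CPM from 0.18 to 0.94, with a median of 0.77. Psap with Cd68 was the closest pair and Ctsz with Ctsd the loosest. Cd68 (0.95) and Ctsb (0.94) followed the mean of the 10 most closely and Ctsd least (0.53). Of 7564 genes, those closest to that mean were Atp6v0b (0.97), P2ry6 (0.96), Ifi207 (0.96), Rbm47 (0.96), Rab7b (0.95), Sirpa (0.95), Tcirg1 (0.94), Hebp1 (0.94), Hexa (0.94) and Tns3 (0.94). Atp6v0b and Tcirg1 are proton pump subunits and Hexa a lysosomal hydrolase. Profiles from 1 library share its depth and free RNA, and profiles of 1 class share its cells, so these values are descriptions.

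An unnamed cluster of 290 cells, led by Wfdc18, Csn3, Epcam, Sparc and Col3a1, was present in the CD45 sort in all 5 libraries, with 10 to 152 cells. It held 553 to 1495 CPM of Ctsl, 315 to 599.7 of Cd63 and 241 to 508 of Ctsd, but 0 to 11.0 of Cd68 and 9.23 to 119 of Ctss.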

How the data were processed

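Per the labels' protocols, the authors ran Cell Ranger 9.0.1, and the deposited matrices hold whole-number UMI counts per gene and cell, not normalised. The submitters' processing notes also list Seurat 5.2.0 and the build GRCm39. Promoter coordinates are those of GRCm38.p6 and were joined to no coordinate of the files.

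Cells were kept with at least 200 genes and at most 15% mitochondrial counts. Scrublet (scanpy 1.11.5) marked at most 0.134% of cells on its own threshold, so the highest-scoring cells, at most 5%, were removed. Clustering used 2000 variable genes, 30 principal components, 15 neighbours and leidenalg 0.10.2 at resolution 1, over 24 clusters. One of these held several dendritic classes and was split at resolution 0.5. Antigen receptor segment, cell cycle, ribosomal, mitochondrial, haemoglobin and lysosomal genes took no part. Clusters were left out as mixed by a rule set after seeing the data. It removed those in which the runner-up class reached 0.5 of the best score with a depth above 1.5 times that of their libraries, or 0.4 with a depth above 2 times.

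Counts were summed per class and library. Log2 ratios were taken on CPM + 1, a scale that shrinks the differences of low genes, with exact conditional binomial intervals. Levels have exact Poisson and shares exact Clopper-Pearson intervals, at 95%. Genes with at least 50 CPM on either side were tested. Thresholds were 0.5 log2 units between libraries and 1 between classes. The ratios were also run on simulated Poisson counts with whole-library totals. Such counts follow the model of the intervals and hold no variation between cells, mice or libraries, so that variation was not tested.

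All 10 members are named. Of the list genes with the same sign in both combination comparisons and 50 CPM or more in at least 1 of their 4 libraries, the 6 highest and 6 lowest are named, as are the 10 genes most like the members, and list genes past a threshold, except what is not reported here. Those past a threshold, the T-like clusters and the single classes compared between libraries were picked after their values were seen. The members and lists were chosen with earlier results of these data known.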

Additional observations from a re-analysis of the deposited data

Results flagged for a closer look

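Some of the 10 genes went opposite ways in comparisons of the same kind, each with a counting interval that leaves out 0. With 1 library per label these differences were not tested. In all monocyte-macrophage-like cells Cd63 differed by -0.44 log2 units in Combined against CTX and by 0.28 in combod18t against ctxd18t, and Ctsl by 0.17 and -0.60. With each library clustered separately the day 18 ratio of Cd63 was -2.59, the same sign as in Combined against CTX. The share of C1q-high cells among them differed the same way as Cd63, at 7.47% in Combined against 16.1% in CTX and 51.7% in combod18t against 34.6% in ctxd18t, and its part was not tested.

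Within states, Cd63 was higher in C1q-high cells of Combined than of CTX (0.36) and lower in classical monocyte-like cells (-0.79). At day 18 it was likewise higher in C1q-high cells of combod18t (0.35) and lower in its classical monocyte-like cells (-1.57). C1qa in the classical monocyte-like cells was 179.9 CPM in Combined and 316 in CTX, moving with Cd63, as did C1qb (131 and 208) and C1qc (125 and 213). At day 18 C1qa went the other way, at 261 in combod18t and 243 in ctxd18t. C1qb (135 and 153) and C1qc (121 and 158) moved with Cd63 there. The part of these genes was not tested. Ctss differed by 0.12 in C1q-high and -0.10 in classical monocyte-like cells in Combined against CTX, and by 0.15 and -0.23 at day 18. Ctsz at day 18 differed by 0.51 in C1q-high and -0.32 in classical monocyte-like cells.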

How the results depend on the processing

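The number of genes of the 10 at least 2-fold higher in monocyte-macrophage-like cells was 9 under every alternative tried. The number past the fold in Combined against CTX was 2 in place of 1 with median-of-ratios scaling, which added Cd63 (-0.51). In combod18t against ctxd18t it was 2 in place of 1 with median-of-ratios scaling, when CPM were averaged over cells and at resolution 2, and 4 with mixed clusters kept and with each library clustered separately. In C1q-high against classical monocyte-like cells it was 2 in place of 1 with likely doublets kept. The cause was not tested, except that separate clustering named 0 C1q-high cells in place of 138 in combod18t and 63 in place of 269 in ctxd18t, with 407 and 763 mixed cells in place of 199 and 239. The Lgmn ratio ranged from -0.94 to -0.75 over the alternatives in Combined against CTX, from -1.47 to -1.29 in Combined against MRX, from -0.57 to -0.52 in CTX against MRX and from -1.31 to -0.32 in combod18t against ctxd18t. The Ctsl ratio ranged from -0.81 to -0.37 in combod18t against ctxd18t. Without the filter on low genes, 17.9% of genes in place of 7.51% passed the fold in combod18t against ctxd18t, and 3.90%, 9.51% and 16% in Combined against CTX, CTX against MRX and Combined against MRX. No paired analysis was possible because each label has 1 library, which holds for comparisons of labels. Class and state contrasts were made within each library and given as values. Classes under 50 cells in a library, which include cDC1-like and migratory dendritic-like cells throughout, were given as levels, with no log2 ratio.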
